A study of Akebia trifoliata with 9 samples.

Results

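Leaves of Akebia trifoliata, a woody vine grown here from cuttings, were compared between plants under simulated acid rain (CUR0) and plants given distilled water (Control). The comparison rests on 6 of the 9 libraries of the series, 3 of each group, chosen by their labels. The CUR0 plants were sprayed on the leaves with acid rain of pH 2.0 and had their pots watered with a curcumin solution set at 0 µmol/L. The Control plants were sprayed and watered with distilled water. Treatment ended after 28 days in both groups. The libraries of a group are labelled biological replicates, but more plants per treatment are stated than replicates, so it is unclear whether each library is 1 plant. The p-values rest on the spread between these libraries, shared in part across genes of similar level, and that spread may be partly technical. The labels give no batch, harvest order or vehicle of the watering solution.

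Acid rain is rain or mist made acid chiefly by sulfuric and nitric acid. On a leaf it can wear down the waxy cuticle and leach mineral ions, and strong exposure bleaches and kills patches of tissue. Plants are known to meet such injury with antioxidant enzymes, changes in photosynthesis and ion transport, and defence and senescence programmes. Which of these genes moved in these leaves cannot be read from the table, because its 82321 genes carry only the identifiers of a transcriptome assembly. None of the identifiers matched the gene table of Akebia trifoliata that was at hand, so genes are described by level, direction and size of change. For the same reason the leaf label could not be checked against marker genes.

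Expression was given as TPM, the abundance of a gene's transcripts, corrected for their length and scaled so that every library has the same total. TPM keeps no read number, so the sequencing depth is unknown and no counting error can be attached. Genes above 0 TPM numbered 57077 ± 1191 in CUR0 and 57007 ± 966 in Control (SD, n = 3), and genes of at least 1 TPM numbered 28172 ± 1105 in CUR0 and 29413 ± 460 in Control. Neither number differed beyond the spread (exact permutation test, two-sided, p = 1 and p = 0.2, where 3 against 3 libraries cannot go below 0.1). A gene was tested if it had at least 1 TPM in at least 3 of the 6 libraries, which left 27315 genes holding 97.9% to 98.3% of each library's TPM.

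The profiles of leaves under acid rain stood apart from those of watered leaves. The difference between 2 libraries was measured as the share of all TPM that is assigned to different genes in them. This share ran from 12.8% to 19.0% over the 9 pairs of a CUR0 and a Control library, from 6.81% to 10.3% between CUR0 libraries and from 5.58% to 10.9% between Control libraries. Each of the 9 pairs across groups thus differed more than each of the 6 pairs within a group. Pairs share libraries, so the values are given as a description.

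**Figure D1:**
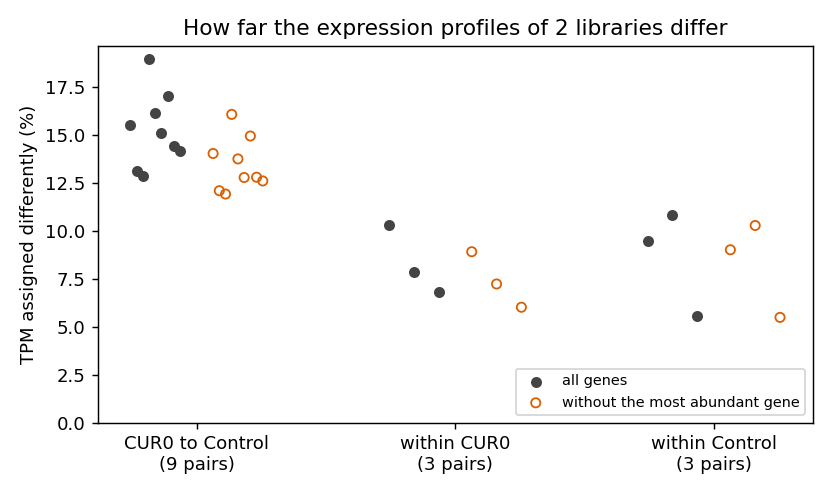
Each point is a pair of libraries, and the vertical axis is the share of TPM assigned to different genes in the pair, in percent, with all genes (filled) and without the most abundant gene (open). All 9 pairs of a CUR0 and a Control library lie at or above 12.8% with all genes, and the 6 pairs within a group at or below 10.9%.

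One gene, singled out after its values were seen, carried part of this distance. TRINITY_DN54103_c1_g1, the most abundant gene of the table, stood at 108931, 137104 and 121266 TPM in the CUR0 libraries, against 79143, 88693 and 90497 TPM in the Control libraries. The groups did not overlap, but the difference of 0.50 in log2(TPM + 1) had a 95% confidence interval from -0.38 to 1.39 and did not pass the threshold (limma, Benjamini-Hochberg adjusted p = 0.400). The limma standard error of 0.37 draws in part on the spread fitted for genes of this level. It is larger than the spread of these library values alone would give, so the interval does not measure the replicates alone. Without this gene the pairs across groups still differed by 11.9% to 16.1%, the CUR0 pairs by 6.02% to 8.92% and the Control pairs by 5.49% to 10.3%. On the first principal component of log2(TPM + 1), which held 51.7% of the variance, the CUR0 libraries lay between -60.7 and -54.9 and the Control libraries between 55.2 and 61.1. The second component, with 14.0%, did not separate the groups: it ran from -38.2 to 47.3 over CUR0 and from -32.9 to 18.3 over Control.

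Under acid rain 5165 of the 27315 tested genes (18.9%) passed the test for a change, with 1871 higher in CUR0 (6.85%) and 3294 lower (12.1%). The test was limma on log2(TPM + 1) with only these 6 libraries, and a change means a Benjamini-Hochberg adjusted p under 0.05. Without adjustment, 9067 genes had p under 0.05. In all 5165 genes the 3 CUR0 values lay wholly above or wholly below the 3 Control values, as they also did in another 5550 genes that did not pass. In total the groups did not overlap in 10715 genes (39.2%), with CUR0 higher in 3628 (13.3%) and lower in 7087 (25.9%). In leaf tissue, less RNA of a gene per cell and fewer cells that express it cannot be told apart.

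The count of changed genes moved little under 3 other scalings of the libraries, while the balance of directions differed between them. Before any rescaling, the middle tested gene differed by -0.10 in log2(TPM + 1), with 5% and 95% quantiles of -1.11 and 1.03. Of the calls, 36.2% were upward for TPM as deposited, 42.5% after removal of the 10 most abundant genes (2297 up, 3108 down), 47.9% after quantile normalization (2463 up, 2683 down) and 51.7% after median-of-ratios scaling (2609 up, 2434 down). The excess of genes that fell thus stayed after removal of the 10 most abundant genes, narrowed after quantile normalization and was absent after median-of-ratios scaling. The removal scaled the remaining TPM back to the library total and filtered again, so it tested 31317 genes, of which 17.3% passed. Its counts and directions are therefore not over the same genes as the others. The median difference was -0.06 after removal of the 10 most abundant genes, -0.02 after quantile normalization and 0.01 after median-of-ratios scaling. No gene called with TPM as deposited was called in the other direction under any of the 3 (0 genes), and 4271 genes (82.7% of 5165) were called in the same direction under all 3. Of these, 1853 were higher and 2418 lower in CUR0. They are 99.0% of the genes that rose and 73.4% of the genes that fell with TPM as deposited.

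**Figure D2:**
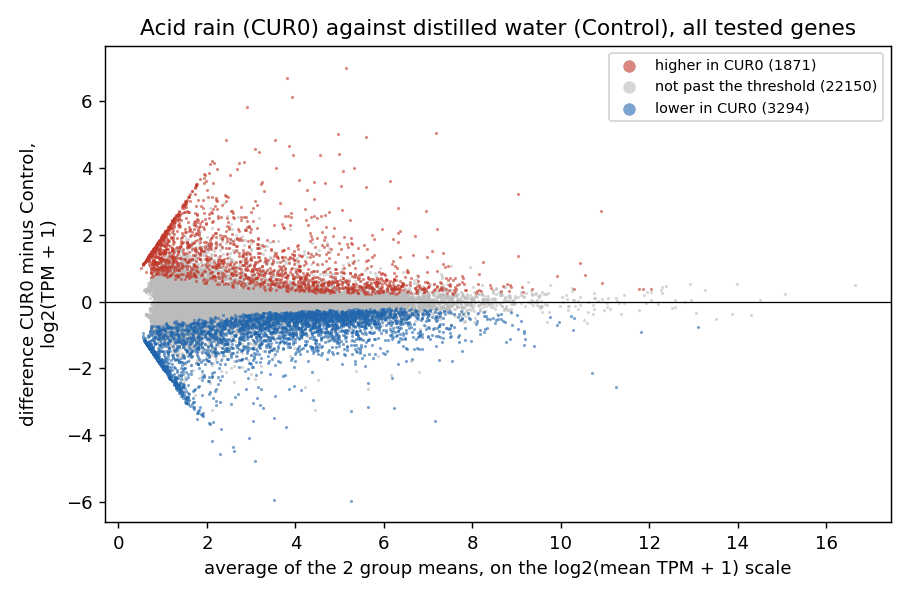
Each point is a tested gene. The horizontal axis is the average of the CUR0 and Control means on the log2(mean TPM + 1) scale, and the vertical axis is the difference CUR0 minus Control in log2(TPM + 1). The 1871 red genes were higher and the 3294 blue genes lower in CUR0 past the threshold; the widest differences lie at low to middle levels, and the edges that narrow to the left follow from adding 1 TPM.

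Most changes were moderate in size. The genes that rose had a median difference of 1.15 in log2(TPM + 1), with quartiles of 0.65 and 1.71, and the genes that fell had a median of -0.81, with quartiles of -1.30 and -0.51. Over the genes called after median-of-ratios scaling, the medians were 0.93 and -0.89. A difference of at least 1, which is a doubling of TPM + 1, was reached by 1072 genes that rose and by 1266 that fell. A difference of at least 3 was reached by 77 that rose and 47 that fell, and the extremes were 7.02 and -5.97. Among the genes that did not pass, 773 also differed by at least 1 in either direction, but only 37 by at least 2 and 2 by at least 3. Differences on this scale understate the change of genes with few TPM.

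The test also bounds how little many genes moved. For 7224 genes (26.4% of those tested) the 95% confidence interval of the difference, not adjusted for the number of genes, lay within 0.5 of 0 in log2(TPM + 1). Their summed share of TPM was 34.4% ± 0.3 in CUR0 and 34.7% ± 0.4 in Control (SD, n = 3). These genes were chosen for a small difference in these same libraries, so the closeness of the shares follows from the choice. The shares only describe how much of the transcript pool these genes hold. Of the 7224 genes, 202 still passed the threshold, 65 upward and 137 downward. At the other end, the interval lay wholly above 1 for 507 genes and wholly below -1 for 490. For 1299 genes (4.76%) it reached past 1 on both sides of 0, so for these the data bound little.

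Between 1 and 1000 TPM, the share of genes that passed was larger in the classes of higher level, where the differences were also measured more precisely. In the class of 1 to 10 TPM, by the mean over the 6 libraries, 15.3% of 15382 genes passed the threshold, 961 upward and 1390 downward. Of the 9313 genes of 10 to 100 TPM 23.5% passed, 642 upward and 1542 downward, and of the 900 genes of 100 to 1000 TPM 30.3% passed, 108 upward and 165 downward, beside 18.9% of all tested genes. The median standard error of the difference was 0.23, 0.11 and 0.09 in log2(TPM + 1) in these 3 classes. The median difference of the genes that rose was 1.55, 0.63 and 0.46 in these classes, and that of the genes that fell was -1.12, -0.57 and -0.65. These medians cover only genes that passed. Where the standard error is larger, only larger differences pass, so they do not show that genes of low level responded more. Another 1638 tested genes had a mean under 1 TPM, of which 20.8% passed; 523 of them entered the test through libraries of 1 group alone, so this share is not comparable with the others.

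With TPM as deposited, the class of 10 to 100 TPM leaned most toward genes that fell. Its lean narrowed after removal of the 10 most abundant genes and after quantile normalization, and was absent after median-of-ratios scaling. Without the 10 most abundant genes 783 genes of this class rose and 1324 fell, with quantile normalization 982 rose and 1171 fell, and with median-of-ratios scaling 1089 rose and 1022 fell. Among the 982 genes of at least 100 TPM, 116 rose and 173 fell for TPM as deposited, 139 and 153 without the 10 most abundant genes, 156 and 161 after quantile normalization, and 167 and 123 after median-of-ratios scaling. The 82 genes of at least 1000 TPM, which held 46.1% ± 2.7 of all TPM in CUR0 and 43.0% ± 0.6 in Control (SD, n = 3), were split evenly, with 8 higher and 8 lower in CUR0. For 33 of these 82 genes the confidence interval lay within 0.5 of 0.

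**Figure D3:**
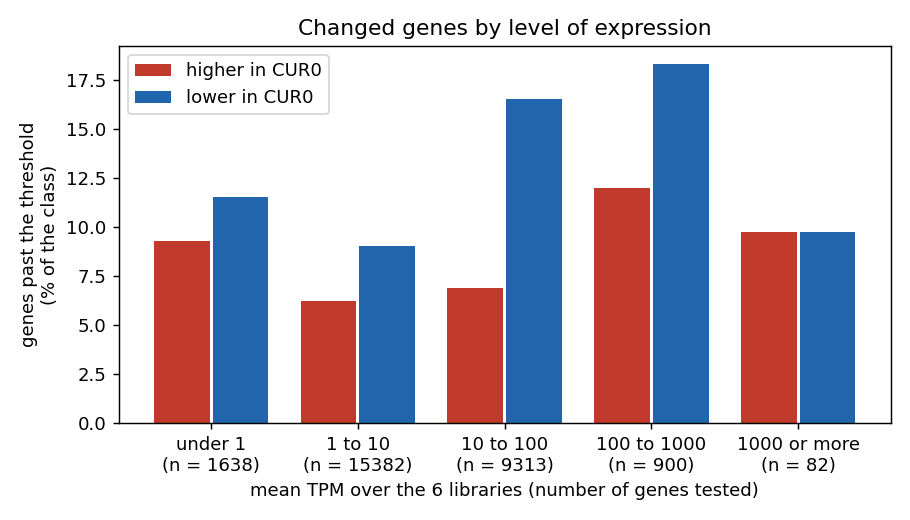
The bars give the share of tested genes that were higher (red) or lower (blue) in CUR0 past the threshold, in percent of each class of mean TPM over the 6 libraries, with TPM as deposited. The class of 10 to 100 TPM has 6.89% higher and 16.6% lower, and the class of at least 1000 TPM has 9.76% each way.

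The top of the expression ranking was largely shared. Of the 100 genes with the highest mean in CUR0, 87 were also among the 100 highest in Control. Of the 13 genes in the CUR0 list alone, 5 were called higher in CUR0, and of the 13 in the Control list alone, 6 were called lower in CUR0. Among the 100 genes with the highest mean over all 6 libraries, 10 rose and 10 fell, which is 20 genes beside 18.9% of all tested genes.

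Summed over genes, those that rose held 8.89%, 8.87% and 8.99% of all TPM in the CUR0 libraries, against 4.98%, 5.005% and 5.07% in the Control libraries. The genes that fell held 8.82%, 8.06% and 8.25% in the CUR0 libraries, against 14.9%, 14.8% and 14.5% in the Control libraries. The genes were chosen on these same libraries, so the separation of the groups is fixed by the choice, and the sums describe how much of the transcript pool the changes involve.

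**Figure D4:**
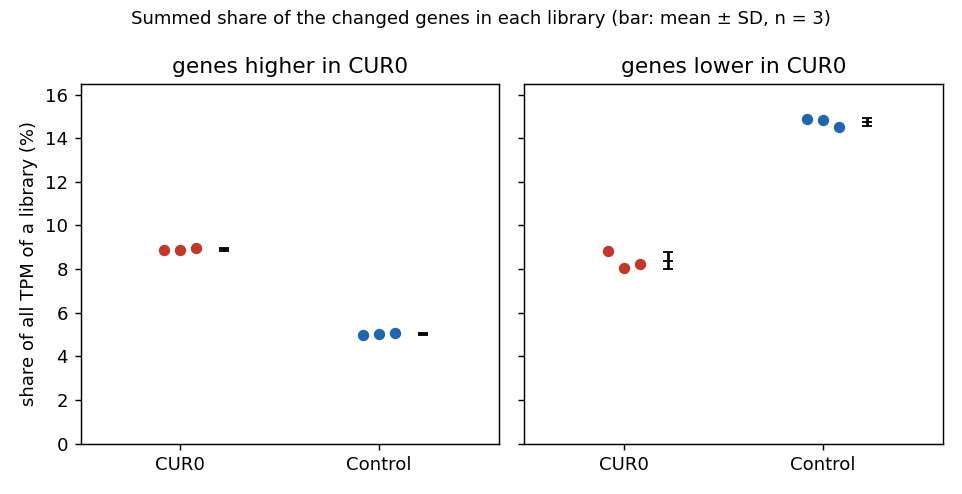
Points give, for each library, the share of all TPM in percent held by the 1871 genes higher in CUR0 (left panel) and by the 3294 genes lower in CUR0 (right panel); bars are the mean ± SD of 3 libraries. The left panel lies near 8.9% in CUR0 and 5.0% in Control, and the right panel between 8.06% and 8.82% in CUR0 and between 14.5% and 14.9% in Control.

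The summed change lay largely in few genes, as did all TPM of a library. The 10 most abundant genes of a library held 23.3% to 29.2% of its TPM, and 99 to 219 genes held at least 50%. Of the TPM gained by the genes that rose, 51 genes accounted for over 50%, and 10 genes for 32.5%. Of the TPM lost by the genes that fell, 102 genes accounted for over 50%, and 10 genes for 28.2%. Those 10 genes with the largest gain had means from 844.8 to 4969 TPM in CUR0 and from 23.8 to 3696 TPM in Control, with ratios of CUR0 to Control from 1.30 to 36.1 and a median of 1.97. The 10 with the largest loss had means from 41.6 to 6769 TPM in CUR0 and from 483.9 to 11552 TPM in Control, with ratios of Control to CUR0 from 1.62 to 11.6 and a median of 2.31.

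The 4 identifiers given here are the 2 largest gains and the 2 largest losses of mean TPM among the changed genes, and their size is not typical. TRINITY_DN6222_c1_g1 stood at 4601, 5446 and 4861 TPM in the CUR0 libraries, against 725.6, 874.7 and 658.4 TPM in the Control libraries. Every CUR0 value was over 5 times every Control value, and the gene ranked 21 by mean TPM in CUR0 and 101 in Control. Its difference was 2.73 ± 0.13 (SE) in log2(TPM + 1), at a limma adjusted p of 0.000276, and this gene alone made up 10.8% of the TPM gained by the genes that rose.

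TRINITY_DN20639_c0_g1 stood at 1476, 1292 and 1761 TPM in the CUR0 libraries, against 81.9, 285.8 and 167.0 TPM in the Control libraries. All CUR0 values lay far above the Control values, which themselves differed more than 3-fold. The difference was 3.24 ± 0.42 (SE) in log2(TPM + 1), at a limma adjusted p of 0.00502. With the 3 curcumin libraries (CUR50) in the fit, where this gene was listed at 0, 550.7 and 0 TPM, the standard error was 2.13 and the call was lost (limma, adjusted p = 0.389).

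TRINITY_DN40427_c0_g1 stood at 1184, 1021 and 796.1 TPM in the CUR0 libraries, against 6305, 5729 and 5556 TPM in the Control libraries. It fell to rank 81 by mean TPM in CUR0, against rank 17 in Control. The difference was -2.57 ± 0.16 (SE) in log2(TPM + 1), at a limma adjusted p of 0.000569, and with the CUR50 libraries in the fit the call was lost (adjusted p = 0.0682).

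TRINITY_DN2350_c2_g1, among the 10 most abundant genes of the 6 libraries, stood at 6750, 6805 and 6752 TPM in the CUR0 libraries, against 13573, 11059 and 10022 TPM in the Control libraries. The CUR0 values were almost alike and the Control values spread over a wide range, without overlap. Its difference of -0.76 ± 0.16 (SE) passed narrowly, with an adjusted p of 0.0226 (limma). The call was lost with median-of-ratios scaling (adjusted p = 0.113) and in 4 of the 6 fits that left out 1 library: without CUR0 replicate 1 (adjusted p = 0.0517), 2 (0.0861) or 3 (0.0963) and without Control replicate 2 (0.0779). None of the 4 genes shared its assembly cluster with another gene of the table.

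**Figure D5:**
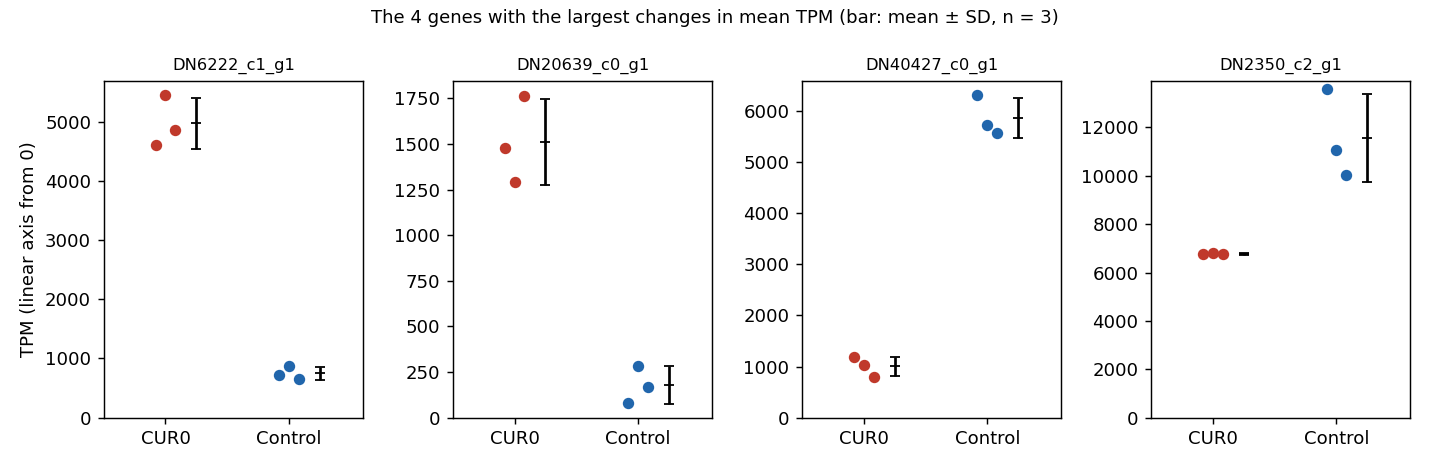
Each panel gives 1 of the 4 genes, with TPM on a linear axis from 0; points are libraries and bars the mean ± SD of 3 libraries. The 2 genes on the left lie higher in CUR0 and the 2 on the right lower, and in each panel the groups do not overlap.

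Part of the change was between values of 0 and mostly low levels of at least 1 TPM. Listed at 0 in all 3 Control libraries and at 1 TPM or more in all 3 CUR0 libraries were 298 genes, of which 293 passed the threshold. The reverse pattern, 0 in all 3 CUR0 libraries and 1 TPM or more in all 3 Control libraries, was also found in 298 genes, of which 292 passed. All these genes entered the test through the group in which they were present, so their calls follow in part from the filter and their number is a description. These genes had low levels where they were present: the median was 2.80 TPM in CUR0 for the first set and 2.40 TPM in Control for the second, and 11 and 8 of them reached 10 TPM. The highest mean was 55.6 TPM in the first set and 23.3 TPM in the second.

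A wider set fell under 1 TPM in 1 group. Of the 1871 genes that rose, 718 (38.4%) had a mean under 1 TPM in Control, with a median of 2.72 TPM in CUR0. Of the 3294 genes that fell, 761 (23.1%) had a mean under 1 TPM in CUR0, with a median of 2.57 TPM in Control. A group with a mean under 1 TPM cannot have all 3 libraries at 1 TPM, so these genes needed the other group to enter the test. Their calls follow in part from the filter, and the counts are a description. The share of such means over all tested genes was not counted, so 38.4% and 23.1% cannot be called particular to the changed genes. An exact 0 can also be a failed estimate, and without read numbers the floor behind a 0 is unknown. Patterns of 0 in a single library also occurred, with the library at 0 and the other 5 at 1 TPM or more. They numbered 51 to 79 genes for each CUR0 library and 58 to 80 for each Control library. These are counts for each library and of another pattern, so their size cannot be set against the group patterns of 0.

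The assembly groups similar sequences into clusters, and 9118 of the tested genes shared a cluster with another tested gene. Of these 19.7% changed, beside 18.5% of the 18197 genes alone in their cluster. In 300 of the 4009 clusters with at least 2 tested genes, at least 2 genes changed. They all rose in 56 clusters, all fell in 146, and moved in both directions in 98. In these 98 clusters the changed members differed by a median of 0.82 in either direction in log2(TPM + 1), while the TPM summed over the cluster differed by a median of 0.25 and passed the threshold in 34. In 77 of the 98 the sum moved by less than 0.5. These clusters were chosen for members called in opposite directions, so a smaller change of the sum follows in part from the choice. Reads of similar sequences can be divided differently between the members of a cluster from library to library, and the part of this in these opposite changes was not tested. With TPM summed per cluster, 4089 of 24035 clusters changed, 1462 upward and 2627 downward.

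Without CUR0 replicate 1, 3548 genes were lower in CUR0, against 3294 with all 6 libraries. The count of changed genes in both directions fell when any 1 library was left out, least without CUR0 replicate 1. It was 3382 and 2790 genes without CUR0 replicate 2 or 3, 3628, 2931 and 3039 without Control replicate 1, 2 or 3, and 5001 without CUR0 replicate 1. Called in the same direction in all 6 of these fits were 2302 genes (44.6% of the 5165), 888 upward and 1414 downward. This set had the larger changes, with medians of 1.52 and -1.19 in log2(TPM + 1), which follows in part from asking for a call with fewer libraries. It held 3.81% ± 0.07 of all TPM in CUR0 and 1.48% ± 0.06 in Control for the genes that rose, and 3.58% ± 0.17 in CUR0 and 7.59% ± 0.07 in Control for the genes that fell (SD, n = 3). The genes were chosen on these same libraries, so the separation of these shares is fixed by the choice. Of the 2302, 2279 were also called under the 3 other scalings.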

How the data were processed

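The authors deposited TPM values for 82321 genes and 9 libraries. Per the submitters' processing notes the tools were fastp, Bowtie2, RSEM and DESeq2, with no version named. The identifiers look like those of Trinity, an assembler that builds transcripts from reads; its settings and any annotation were not given in the sources used here. Columns were assigned to libraries by title. Because TPM are shares, a rise of abundant genes lowers all others.

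The 6 CUR0 and Control libraries were fitted with limma (eBayes, intensity trend) on log2(TPM + 1), with 4 residual degrees of freedom and a prior of 2.44, and Benjamini-Hochberg adjusted p-values were taken over all 27315 tested genes. The test was run on simulated normal values, with changes planted only in genes above the lowest levels. Recovery of changes in genes near 1 TPM was therefore not checked. Named identifiers are the 2 largest rises and 2 largest falls of mean TPM among genes that passed without overlap between groups; only 4 were taken because they have no names, and lists of pathway or cell type genes could not be applied. The comparison, its rules and its lists were chosen with earlier results of these data known. Analyses used R 4.3.3, limma 3.58.1, version 1.17.8 of data.table, Python 3.11.15 and matplotlib 3.10.9.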

Additional observations from a re-analysis of the deposited data

How the results depend on the processing

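The count of 5165 changed genes stayed within 1.5 times under the 3 other scalings, a filter of 5 TPM, a pseudocount of 0.1, no trend and sums per cluster. It moved to 3442 without a filter (2132 lower in CUR0), where 77831 genes were tested. The filter of 5 TPM gave 1239 genes higher in CUR0. With all 9 libraries in the fit 2971 changed, 1047 higher and 1924 lower; 2913 of them were among the 5165 in the same direction. With the replicate number as a block 2982 changed, 1165 higher and 1817 lower; deviations of same-numbered libraries correlated by -0.045 to -0.017 across genes, so the numbers were not taken as pairs. The fit of 9 libraries and the block tested the same 27315 genes, with 6 and 2 residual degrees of freedom in place of 4. The cause of these moves was not tested. Leaving out 1 library gave 2790 to 5001 changed genes, 1088 to 1453 higher and 1702 to 3548 lower. Of the 4 identifiers, TRINITY_DN6222_c1_g1 passed in all 15 alternatives; TRINITY_DN20639_c0_g1 and TRINITY_DN40427_c0_g1 lost the call in 1, the fit of 9 libraries, and TRINITY_DN2350_c2_g1 in 7 of 14, with the block (adjusted p = 0.0602) and the fit of 9 libraries (limma, adjusted p = 0.0973) among them. None reversed. The counts by class of level and of values without overlap were recomputed under other scalings as an addition after seeing the data. Genes without overlap numbered 4741 higher and 6941 lower without the 10 most abundant genes, where 31317 genes were tested. They numbered 4917 higher and 5679 lower with quantile normalization, and 5350 and 5245 with median-of-ratios scaling. The unknown read depth limits what can be said of genes near 1 TPM.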

Other observations

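Within a group, 188 tested genes were listed at 0 in at least 1 CUR0 library and reached 5 TPM in another, against 277 such genes within Control. The median SD of a gene in log2(TPM + 1) was 0.19 within CUR0 and 0.17 within Control, and the SD was larger in CUR0 in 56.3% of the tested genes. In the curcumin libraries, which entered neither group, TRINITY_DN6222_c1_g1 stood at 7384, 7011 and 5570 TPM, TRINITY_DN40427_c0_g1 at 352.4, 3851 and 2824 TPM, and TRINITY_DN2350_c2_g1 at 5693, 10860 and 8226 TPM.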
